A study of Rattus norvegicus with 6 samples.

Results

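Small nucleolar RNAs (snoRNAs) and small Cajal body RNAs (scaRNAs) were examined in pull-down RNA of the rat pituitary cell line GH4C1. Members were taken by name, as every row of the deposited gene table whose name starts with SNORA, SNORD, SCARNA, snoU or snoZ followed by a digit. This rule found 328 of 32883 rows, and 136 of them held at least 1 count in the 6 libraries. Of the 328 rows, 120 were box H/ACA (SNORA), 199 were box C/D (SNORD), 8 were scaRNAs and 1 was named snoZ. Counts were present in 58 H/ACA rows, 73 C/D rows, 5 scaRNA rows and 0 snoZ rows. Only 20 members had enough counts to be tested between pools: 6 H/ACA, 12 C/D and 2 scaRNA rows.

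The study sought RNAs that bind Neat1 directly, a long noncoding RNA that serves as the scaffold of nuclear bodies called paraspeckles. Every library came from wild-type GH4C1 cells, an established somatolactotroph line, after treatment with psoralen, which crosslinks base-paired strands. RNA was captured with oligo pool A in 3 libraries and with oligo pool B in the other 3. The labels state neither the pools' sequences nor whether 1 pool is a control, and neither Neat1 itself nor any input or uncrosslinked RNA was analysed here. The libraries are not stated to come from separate cultures, so p-values measure only the spread between libraries, which may be technical. Pulled-down counts reflect both how much of an RNA the cells held and how much of it was captured, and these cannot be told apart.

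Total counts ranged from 1826390 to 3685899 per library, and 11582 genes were tested. The line's own markers were present, with prolactin (Prl) at 713 ± 41.3 CPM (counts scaled to the size of the library; SD, n = 3) with pool A and 445 ± 56 with pool B. Growth hormone (Gh1) stood at 170 ± 2.84 and 166 ± 19.2 CPM. Tshb and Fshb, hormone genes of other pituitary lineages, had 0 counts in all 6 libraries, while Lhb had 11.9 ± 3.63 and 42 ± 2.69 CPM. Pomc, of another lineage, had 11, 0 and 11 counts with pool A and 0, 4 and 0 with pool B. Col1a1 and Gfap, markers of fibroblasts and glia, did not exceed 4 counts in any library. Ptprc, a marker of blood cells, had 6, 1 and 18 counts with pool A and 0 in every pool B library. The part of Lhb, Pomc and Ptprc in the results below was not tested.

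Most vertebrate snoRNAs are cut out of the introns of host genes after splicing and are then held in a protein particle, the snoRNP. Box C/D snoRNAs pair with a target RNA and direct fibrillarin to methylate a ribose there, and box H/ACA snoRNAs direct dyskerin to turn a uridine into pseudouridine. Most targets lie in ribosomal RNA, while scaRNAs guide the same modifications on spliceosomal small nuclear RNAs in Cajal bodies. Several host genes make no protein, among them Gas5, and belong to the class of genes whose transcripts begin with a stretch of pyrimidines (C or T).

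Many of the rows described next lie at the place of a noncoding host, Gas5 or LOC100912041, so the 60 bases around the RefSeq start sites of these genes on build GRCr8, 30 on each side, are shown 5′ to 3′ with every run of at least 6 bases of C or T in capitals. Both lie on the plus strand, Gas5 at chr13:75836933-75836992 and LOC100912041 at chr1:215048305-215048364. The third sequence is that of Snhg11, the only noncoding host of the list of hosts that is named in the count table, at chr3:167451242-167451301 on the plus strand.
Gas5: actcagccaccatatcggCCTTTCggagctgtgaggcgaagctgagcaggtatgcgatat
LOC100912041: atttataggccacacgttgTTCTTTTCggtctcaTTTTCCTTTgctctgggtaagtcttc
Snhg11: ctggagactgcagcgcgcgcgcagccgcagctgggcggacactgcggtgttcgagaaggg
Gas5 had 1 such run, before the start site. LOC100912041 had 2, 1 before and 1 after its start site, and Snhg11 had 0. No marked run spans a start site. A run of this kind on the shown strand is common, since it is present in 49.7% of the 33469 windows of the same length around all RefSeq starts, so its presence is a description only. RefSeq places 9 snoRNA genes inside Gas5 and 7 inside LOC100912041. By name, only SNORD81 could be matched to Gas5, and only SNORD26, SNORD27 and SNORD30 to LOC100912041, so the host of the other rows there was not tested.

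Over all tested genes, 40.6% differed between pools at an adjusted p under 0.05 by edgeR's quasi-likelihood test with Benjamini-Hochberg adjustment: 18.6% had more counts with pool A and 22.0% had more with pool B. Of the 20 tested members, 4 passed toward pool A, 6 passed toward pool B and 10 did not pass. The CPM ranges of the pools did not overlap for 13 of the 20, 6 with pool A above and 7 with pool B above, against 49.1% of all tested genes. Their median log2 fold change, pool A over pool B, was -0.18, beside 0.02 for all tested genes. With no filter on low counts the members' median turned to 0.58, beside 0.07 for all genes, and fitted values of rows at 0 in a pool depend on the prior count. By class, 4 of 12 C/D rows passed toward pool A and 4 toward pool B, both scaRNA rows were higher with pool B, and 0 of 6 H/ACA rows passed in either direction. The difference between classes was not tested, and the tested H/ACA rows had fewer counts than the C/D and scaRNA rows with the most counts. A row with low counts enters the test only through the pool where it is high, so these counts describe the rows that entered and say nothing of the other 116 rows with counts.

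**Figure D1:**
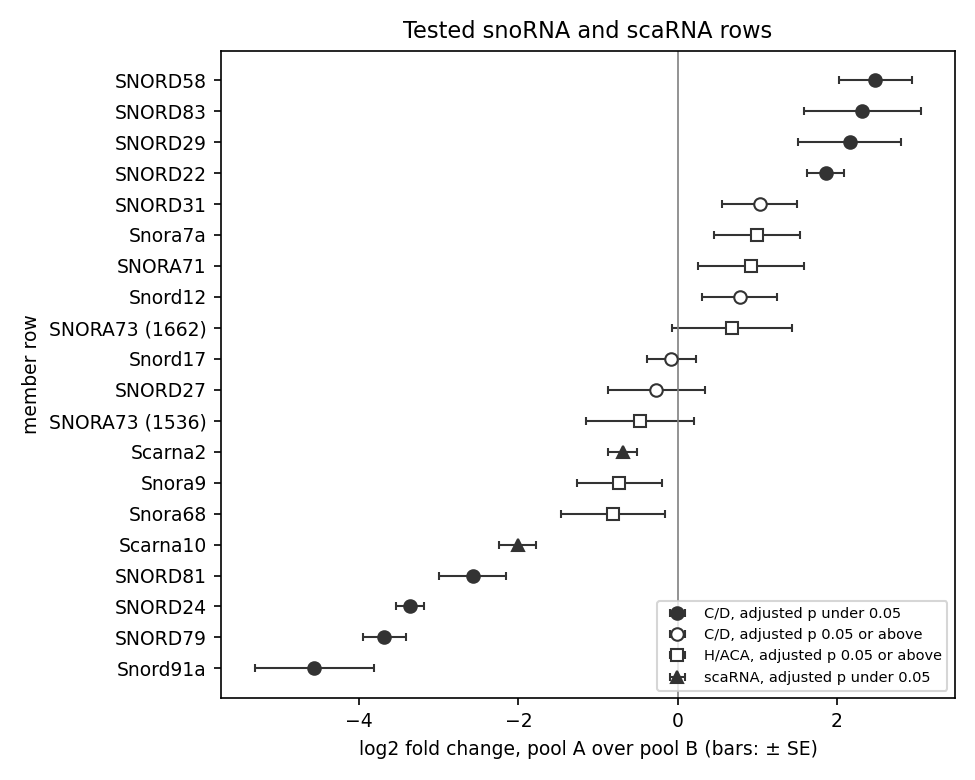
Log2 fold change of each of the 20 tested member rows, pool A over pool B, with bars of ± SE from 3 libraries per pool. Circles are C/D, squares H/ACA and triangles scaRNA rows, and filled symbols passed an adjusted p of 0.05. The values run from -4.56 for Snord91a to 2.48 for SNORD58, and all 6 H/ACA squares are open.

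A row named SNORD24 (ENSRNOG00000060649), after a box C/D family whose known members guide methylation of large-subunit ribosomal RNA, held the most counts of any member and was lower with pool A. Other rows carry the same name, and whether this row is the SNORD24 known from other species was not tested. It had 158, 152 and 176 counts in pool A replicates 1, 2 and 3, and 1816, 865 and 1816 counts in pool B. All 3 pool B libraries stood far above all 3 pool A libraries, at 593 ± 109 against 52.7 ± 8.89 CPM. The log2 fold change was -3.36 ± 0.17 (SE; adjusted p = 7.01e-15, edgeR). SNORD79 (ENSRNOG00000040595), also a guide for large-subunit rRNA, had 21, 25 and 43 counts with pool A and 375, 168 and 487 with pool B. Its pools did not overlap either, and the log2 fold change was -3.68 ± 0.27 (adjusted p = 1.31e-11, edgeR). SNORD81 (ENSRNOG00000052013), another large-subunit guide, had 15, 12 and 9 counts with pool A and 58, 45 and 86 with pool B. The fold change of SNORD81 was -2.57 ± 0.42 on the log2 scale (adjusted p = 1.16e-05, edgeR), again with no overlap.

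These 3 rows lie together in the table, in a stretch from Gm26224 to SNORD81. Rows of the table follow the genome: names matched uniquely to RefSeq lay on the same chromosome as the next matched row in 98.9% of 17198 cases. RefSeq places SNORD81 inside Gas5, and no row with the name Gas5 was among those analysed here. The stretch holds 10 rows, of which 9 had counts and 7 were tested. All 7 passed toward pool B, beside 22.0% of all tested genes in that direction. This stretch was singled out after its values had been seen, so its counts are a description. The 4 tested rows that are not members by name were Gm22489 (-3.96 ± 0.18 on the log2 scale), Gm23212 (-4.53 ± 0.28), AC113837.5 (-1.77 ± 0.26) and AC113837.6 (-3.11 ± 0.23). Together the 10 rows had 374, 356 and 493 counts with pool A and 4518, 2472 and 4916 with pool B, 12.0-fold more CPM with pool B.

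These 3 member rows held most of the C/D counts with pool B. Their summed counts were 194, 189 and 228 with pool A and 2249, 1078 and 2389 with pool B. They held between 16.9% and 21.3% of all C/D counts with pool A, and between 80.9% and 85.4% with pool B. These are shares of reads and are not corrected for gene length.

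Of the snoRNAs between Slc3a2 and Wdr74, where RefSeq places LOC100912041, SNORD22 and SNORD29 were higher with pool A. In human and mouse, the noncoding host at this place is Snhg1, which carries SNORD22 and SNORD25 to SNORD31. All 8 of these names were found there as members. SNORD22 (ENSRNOG00000056397), whose frog counterpart is needed for processing of small-subunit rRNA, had 438, 298 and 362 counts with pool A and 145, 32 and 98 with pool B. The pool A libraries lay close together at 117 ± 2.8 CPM, above all pool B libraries at 34.7 ± 16.1 CPM. The log2 fold change of SNORD22 was 1.86 ± 0.23 (adjusted p = 2.15e-07, edgeR). SNORD29 (ENSRNOG00000058132), a guide for large-subunit rRNA, had 25, 39 and 18 counts with pool A and 9, 4 and 4 with pool B, with no overlap. Its fold change was 2.16 ± 0.65 on the log2 scale (adjusted p = 0.0087, edgeR), and without pool A replicate 2 the adjusted p was 0.148.

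The other 6 members of this stretch did not pass or were not tested. SNORD31, a guide for large-subunit rRNA, had 31, 42 and 37 counts against 21, 11 and 17, which in CPM did not overlap, but its adjusted p was 0.0819 (edgeR; log2 fold change 1.03 ± 0.47). SNORD27, a guide for small-subunit rRNA, had 21, 5 and 19 counts against 16, 8 and 22, and its pools overlapped (adjusted p = 0.763, edgeR). SNORD25, SNORD26, SNORD28 and SNORD30 had at most 22 counts in any library, and their pools overlapped. The 8 members together had 541, 414 and 465 counts with pool A and 214, 71 and 161 with pool B, or 152 ± 10.1 against 57.6 ± 17.3 CPM. SNORD22 made up most of these counts, and the other 7 rows alone had 35.4 ± 9.35 against 22.9 ± 1.35 CPM, still with no overlap. All 8 members held between 42.0% and 47.2% of C/D counts with pool A and between 5.33% and 7.8% with pool B. The stretch from Gm26224 to SNORD81 takes most of that pool B total. Of the other 70 C/D rows' counts, the 8 members held between 53% and 59.2% with pool A and between 27.8% and 43.3% with pool B. Both flanking genes moved the other way: Slc3a2 had a log2 fold change of -0.75 ± 0.14 and Wdr74 of -1.86 ± 0.26. Of the 8 rows, 4 were tested and 2 of these passed, both toward pool A, beside 18.6% of all tested genes in that direction. So few rows cannot be told from that share, and differences among the rows were not tested.

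**Figure D2:**
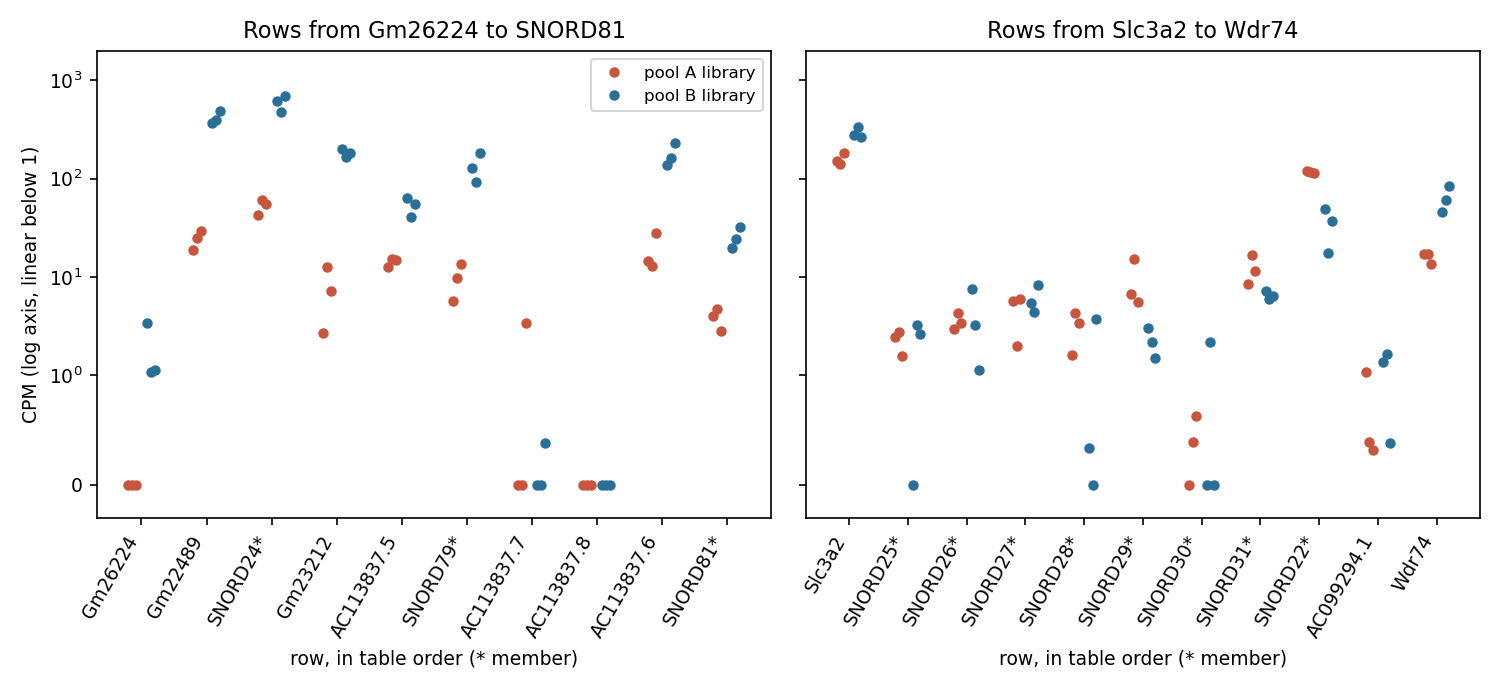
CPM of every row from Gm26224 to SNORD81 (left) and from Slc3a2 to Wdr74 (right), in table order, on a log axis that is linear below 1; each point is 1 library and asterisks mark members. On the left, SNORD24, SNORD79 and SNORD81 stand higher in all 3 pool B libraries, and on the right SNORD22 and SNORD29 stand higher in all 3 pool A libraries.

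The remaining C/D rows that passed lie elsewhere. Snord91a (ENSRNOG00000057925), a guide for large-subunit rRNA, had 1, 1 and 2 counts with pool A and 27, 19 and 44 with pool B. The value for Snord91a, -4.56 ± 0.75 on the log2 scale (adjusted p = 1.61e-05, edgeR), was the most negative of the tested members, and it rests on 4 counts in pool A. This row entered the test only through pool B, so its value and rank are a description. SNORD58 (ENSRNOG00000058148), a guide for large-subunit rRNA, had 54, 57 and 73 counts with pool A and 19, 4 and 7 with pool B, with no overlap. Its fold change was 2.48 ± 0.46 on the log2 scale (adjusted p = 7.9e-05, edgeR). SNORD83 (ENSRNOG00000061767), a C/D snoRNA with no established target, had 37, 22 and 18 counts with pool A and 8, 5 and 0 with pool B. It differed by 2.32 ± 0.74 on the log2 scale (adjusted p = 0.0133, edgeR), and the call was lost without pool A replicate 1 (adjusted p = 0.0747), pool A replicate 2 (0.0559) or pool B replicate 3 (0.0613). Snord17, with 54, 59 and 127 counts against 81, 76 and 58, showed overlapping pools and a log2 fold change of -0.08 ± 0.31 (adjusted p = 0.864, edgeR), whose sign turned with upper-quartile scaling (0.02). Snord12 had 35, 26 and 47 counts with pool A and 17, 9 and 29 with pool B, and its pools overlapped in CPM (adjusted p = 0.196, edgeR).

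Both tested scaRNAs were higher with pool B, by different amounts. Scarna10, which carries both a C/D and an H/ACA part and guides modification of U5 small nuclear RNA, had 78, 47 and 143 counts with pool A and 305, 271 and 328 with pool B. The pools did not overlap, and the log2 fold change was -2.01 ± 0.23 (adjusted p = 5.29e-08, edgeR). Scarna2, a C/D guide for U2 small nuclear RNA, had 306, 216 and 339 counts with pool A and 358, 393 and 413 with pool B. Its fold change of -0.69 ± 0.18 on the log2 scale passed at an adjusted p of 0.00214 (edgeR), also with no overlap in CPM. Of the other 6 scaRNA rows, Scarna6 had 15, 1 and 3 counts with pool A against 14, 5 and 0 with pool B, overlapping, and 3 rows had 0 counts in every library.

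None of the 6 tested H/ACA rows passed, and 0 had an unadjusted p under 0.05 by edgeR or passed by DESeq2 or limma-voom. Their fold changes lay on both sides of 0 with a median of 0.10 on the log2 scale. Snora9 was the only H/ACA row with at least 10 counts in every library, with 21, 14 and 13 against 20, 14 and 36, and in CPM its pool B libraries lay above its pool A libraries (log2 fold change -0.73 ± 0.53, adjusted p = 0.303, edgeR). Snora68 had 11, 10 and 12 counts with pool A and 7, 20 and 21 with pool B (-0.81 ± 0.65, adjusted p = 0.345, edgeR). Both guide pseudouridylation of large-subunit rRNA. Snora7a, another such guide, had 32, 26 and 31 counts with pool A, in CPM above all pool B libraries with 25, 4 and 12 (1.0 ± 0.54, adjusted p = 0.147, edgeR), and it passed only without pool B replicate 1 (adjusted p = 0.0476). The SNORA71 row ENSRNOG00000058944 had 20, 8 and 28 counts against 14, 2 and 10, with an adjusted p of 0.292 (edgeR).

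SNORA73, known as U17 and needed for cleavage of the small-subunit rRNA precursor rather than its modification, was represented by 17 rows, 9 of them with counts. The 2 tested rows had log2 fold changes of -0.47 (ENSRNOG00000061536) and 0.68 (ENSRNOG00000061662), with adjusted p of 0.622 and 0.513 (edgeR). When counts of all 17 rows were summed under 1 name, the value was 0.13 ± 0.38 (adjusted p = 0.819, edgeR). SNORA70 had no row that entered the test, but the sum over its 42 rows, 16 of them with counts, was higher with pool A. It stood at 1.47 ± 0.54 on the log2 scale (adjusted p = 0.0317, edgeR), from 101 counts with pool A and 32 with pool B. The row ENSRNOG00000058078 alone gave 47 of these counts with pool A and 7 with pool B. A low sum, like a low row, can enter the test through the pool where it is high, so this value is a description. That the 6 tested rows did not pass does not show that the pools are alike.

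Summed over every row with counts, so that the low rows also entered, the H/ACA class had 262, 173 and 284 counts with pool A and 189, 134 and 179 with pool B. This is 76.2 ± 11.2 against 68.5 ± 4.53 CPM, and the pools overlapped (log2 ratio 0.15; exact two-sided permutation p = 0.4). With library sizes scaled by TMM factors, as in the gene-wise test, the H/ACA ratio was 0.29 and the pools no longer overlapped (exact permutation p = 0.1). The C/D class had 1145, 888 and 1106 counts with pool A and 2743, 1333 and 2797 with pool B. It stood at 336 ± 22.3 against 908 ± 166 CPM with no overlap, a log2 ratio of -1.42. The ratio of C/D to H/ACA counts within a library differed by -1.56 on the log2 scale, also with no overlap. For both C/D comparisons the exact two-sided permutation p was 0.1, the smallest that 3 against 3 libraries can give, and adjusted over the 3 class comparisons the values were 0.15, 0.15 and 0.4 for H/ACA. The 5 scaRNA rows summed to 122 ± 26.3 CPM with pool A and 294 ± 68.7 CPM with pool B.

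Without the 3 rows of this class from Gm26224 to SNORD81, an alternative added after the data were seen, the C/D class changed direction. The remaining 70 C/D rows had 951, 699 and 878 counts with pool A and 494, 255 and 408 with pool B, or 270 ± 10.4 against 154 ± 14.4 CPM. Every pool A library was then above every pool B library, with a log2 ratio of 0.81. With the SNORD22 row ENSRNOG00000056397 also left out, the ratio was 0.36, at 153 ± 12.3 against 119 ± 2.45 CPM, with no overlap. The ratio of C/D to H/ACA counts also changed sign, to 0.67 without the 3 rows and 0.21 without SNORD22 as well, where the pools overlapped. Without only the most abundant row of each class it was -0.20, again with overlap. Members in all took between 0.0491% and 0.141% of a library's counts.

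**Figure D3:**
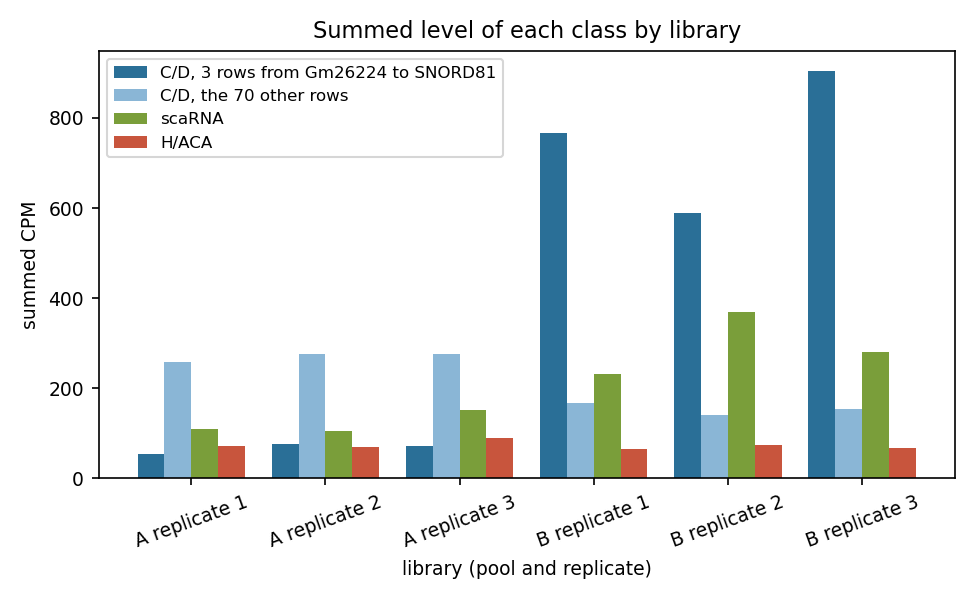
Summed CPM of each class in each of the 6 libraries (bars; y axis from 0). The 3 C/D rows from Gm26224 to SNORD81 sum to 66.3 CPM on average with pool A and 754 CPM with pool B, the 70 other C/D rows to 270 and 154 CPM, and the H/ACA bars stay between 64.4 and 89.1 CPM.

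The other 116 rows with counts were too sparse for the test. Their median was 9 counts over all 6 libraries, and the highest was 64. Together they had 1025 counts with pool A and 654 with pool B, or 109 and 88.3 CPM, and 40 of the 136 rows had counts in 1 library only. The following rows were chosen after their values were seen. SNORD82, whose gene lies in an intron of nucleolin (Ncl) in mammals, had 12, 3 and 27 counts with pool A and 0, 0 and 0 with pool B. Set against the 3 counts per library that a count of 0 allows, the mean level of SNORD82 with pool A was 3.4-fold higher. This leaves out the spread in pool A, 4.3 ± 3.75 CPM, where replicate 2 itself held only 3 counts. The SNORD42 row ENSRNOG00000056377 had 27, 4 and 18 counts with pool A and 0, 0 and 3 with pool B, a ratio of 12.9 with a 95% counting interval of 4.15 to 64.5. Another SNORD42 row, ENSRNOG00000055722, had 0, 3 and 0 counts against 7, 1 and 1, a ratio of 0.262 with an interval of 0.0457 to 1.05. With no filter on low counts, SNORD82, the first of these SNORD42 rows and the SNORA70 row ENSRNOG00000058078 (23, 4 and 20 against 4, 1 and 2 counts) also passed edgeR's test, with adjusted p of 0.000475, 0.00567 and 0.0477. Sparse rows also leaned the other way. The SNORA62 row ENSRNOG00000055465 had 1, 0 and 0 counts with pool A and 16, 3 and 0 with pool B, and Snord19 had 8, 1 and 6 against 15, 9 and 9. Snord60 had 1, 1 and 0 against 6, 4 and 1. In CPM the pools overlapped for SNORA62 and Snord60 but not for Snord19.

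Names that sit on many rows were uneven in whether they had counts. SNORD115, with 59 rows, and SNORD116, with 36 rows, both families of imprinted brain-expressed tandem repeats, had 0 counts in every row and library. How the authors' counting treated reads that match several copies is not given in the sources used here. The 0 counts therefore do not show that these RNAs were absent. SNORA70 had 42 rows, of which 16 had counts, 101 in all with pool A and 32 with pool B. Of the 328 rows, 241 carry a name found on more than 1 row, and near-identical copies can share reads, so a single row of such a name is uncertain.

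Host genes were set beside their snoRNAs next. A candidate host was the gene that contains the member in RefSeq (30 members) or, where RefSeq does not hold the member under that name, the nearest named row that RefSeq shows to contain a snoRNA (58 members). The gene table used gives no strand, so strand was not checked. Among 63 hosts found, 30 had at least 20 counts for the host and at least 20 for its members. The members' summed ratio lay on the host's side of 0 for 16 of these hosts and on the other side for 14. Among the 10 hosts whose own log2 ratio was beyond 1 in either direction, 7 had members on the same side.

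Nucleolin (Ncl), which binds precursor rRNA in the nucleolus, had the largest difference among these 30 hosts, with 29078, 17146 and 28926 counts against 1919, 1143 and 1701 (log2 fold change 3.77 ± 0.16, adjusted p = 1.25e-16, edgeR). Its members SNORA75 and SNORD82 had 51 counts with pool A and 0 with pool B. Ddx39b, an RNA helicase of mRNA export, had 9109, 6482 and 7961 counts against 1066, 673 and 823 (3.0 ± 0.14), and the SNORD83 rows beside it had 86 counts against 16. The ribosomal protein gene Rpl17 (1.37 ± 0.17) stood beside 3 SNORD58 rows with 192 counts against 30. Rpl3 (1.38 ± 0.14), another ribosomal protein gene, contains Snord83b, which had 37 counts with pool A and 5 with pool B. In the other direction, Tsr1, a ribosome assembly factor (-1.45 ± 0.14), stood beside Snord91a with 4 counts against 90, and Gnl3 (-1.81 ± 0.16) contains Snord19 and Snord69 with 15 counts against 34.

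Other pairs differed in size or in direction. Ncapd2, a condensin subunit that contains Scarna10, differed by -0.32 ± 0.13 on the log2 scale (adjusted p = 0.0439, edgeR), while Scarna10 differed by -2.01. Timm23, a mitochondrial import gene, was higher with pool B (-0.96 ± 0.17), while the SNORA74 row beside it had 20 counts with pool A and 3 with pool B. Pdia3 (1.28 ± 0.15) and Phactr4 (1.44 ± 0.27) were higher with pool A, while the SNORA73 rows beside them had 25 against 21 and 71 against 57 counts. Scaled to library size, these are log2 ratios of -0.07 and -0.12, with counting intervals of -0.99 to 0.82 and -0.55 to 0.50 that span 0. SNORA73 and SNORA74 are names with several rows, so the nearest gene is an uncertain host for them. How the authors' counting assigned reads that cover both a host intron and its snoRNA is not given in the sources used here, and its part in these pairs was not tested.

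**Figure D4:**
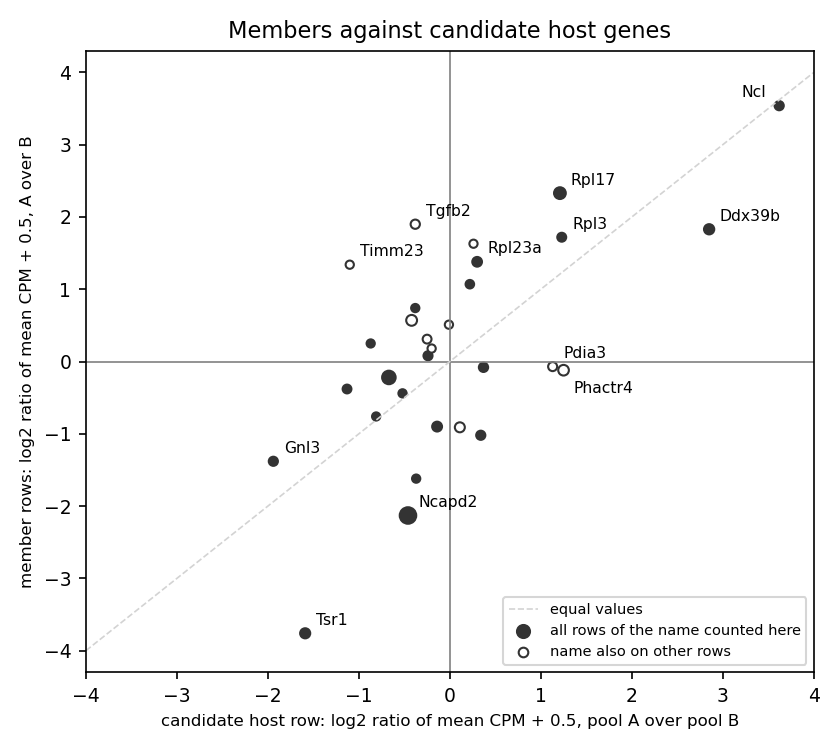
Log2 ratio of mean CPM (plus 0.5) of member rows against that of their candidate host, pool A over pool B, for the 30 hosts with at least 20 counts on both sides; symbol area grows with the members' counts and open symbols are names also found on other rows. Points lie on the same side of 0 for 16 hosts, with Ncl at the upper right and Tsr1 at the lower left.

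A wider list of genes known to carry snoRNAs was drawn up with earlier results of these data known. Of 58 protein-coding names, 56 were found on 62 rows, and 58 rows were tested: 16 passed toward pool A and 14 toward pool B, with a median log2 fold change of -0.01, beside 18.6% and 22.0% of all tested genes and a median of 0.02. Apart from Ncl and Ddx39b, the largest differences were toward pool B. Rpl27a, a ribosomal protein gene, had 212, 167 and 168 counts with pool A and 993, 702 and 1285 with pool B (-2.63 ± 0.17, adjusted p = 4.75e-13, edgeR). Hspa9, a mitochondrial chaperone, had 551, 428 and 485 against 1862, 1116 and 1737 (-1.87 ± 0.13, adjusted p = 6.93e-12, edgeR). The pools did not overlap for either gene. The Rpl7a row ENSRNOG00000047737 had 14, 4 and 8 counts against 44, 8 and 111 (-2.79 ± 0.60, adjusted p = 0.000427, edgeR), but its call was lost without pool B replicate 3 (adjusted p = 0.064), and another row of that name did not pass (-0.07 ± 0.53). Of 21 noncoding host names only Snhg11 was found, with 295, 188 and 258 counts against 339, 159 and 296 (-0.28 ± 0.17, adjusted p = 0.2, edgeR).

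The mRNAs of snoRNP core proteins and of assembly and Cajal body factors, taken as 1 list, did not all go one way. Of 20 such genes 19 were tested: 4 passed toward pool A, 1 passed toward pool B and 14 did not pass, with a median log2 fold change of 0.10. The gene toward pool B, Nolc1, is an assembly factor, and none of the core proteins passed in that direction. Over all tested genes, 18.6% passed toward pool A and 22.0% toward pool B. Of the 4 core proteins of C/D particles, only fibrillarin (Fbl), the methyltransferase, passed the test. It had 1037, 680 and 1063 counts with pool A and 126, 40 and 43 with pool B. The log2 fold change was 3.56 ± 0.22 (adjusted p = 3.4e-13, edgeR). Nop56 (0.23 ± 0.14), Nop58 (0.10 ± 0.13) and the kink-turn binding protein Snu13 (0.41 ± 0.22) did not pass, with adjusted p of 0.198, 0.581 and 0.148 (edgeR). With scaling to total counts alone, Nop58 was at -0.04.

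Among the core proteins of H/ACA particles, Gar1 had 249, 139 and 172 counts with pool A and 87, 36 and 94 with pool B (1.18 ± 0.24, adjusted p = 0.000191, edgeR). Nop10 had 65, 49 and 58 against 12, 18 and 29 (1.31 ± 0.41, adjusted p = 0.0111, edgeR), and this call was lost without pool B replicate 1 (adjusted p = 0.0598). The pools did not overlap in CPM for either gene. The pseudouridine synthase dyskerin (Dkc1) had 737, 622 and 833 counts against 796, 565 and 721 (-0.13 ± 0.14, adjusted p = 0.504, edgeR). In CPM its pool B libraries lay above its pool A libraries, at 284 ± 21.6 against 236 ± 31.9. Nhp2, the fourth core protein, had 3, 5 and 2 against 4, 11 and 23 counts and was not tested.

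Of the 12 assembly and Cajal body factors, 10 did not pass and the other 2 went in opposite directions. Nolc1, a nucleolar and Cajal body phosphoprotein that binds both classes of snoRNP, had 917, 551 and 890 counts with pool A and 4688, 3948 and 5350 with pool B, with no overlap (-2.81 ± 0.15, adjusted p = 8.95e-15, edgeR). Ruvbl2, an ATPase of snoRNP assembly, had 1528, 883 and 1151 against 235, 187 and 399, also with no overlap (1.90 ± 0.18, adjusted p = 9.43e-10, edgeR). Its partner Ruvbl1 was at 0.03 ± 0.23 and did not pass (adjusted p = 0.945, edgeR). Coilin (Coil) and Wrap53, which bring scaRNAs to Cajal bodies, were at -0.40 ± 0.32 and -0.28 ± 0.40 and did not pass either (adjusted p = 0.352 and 0.617, edgeR).

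**Figure D5:**
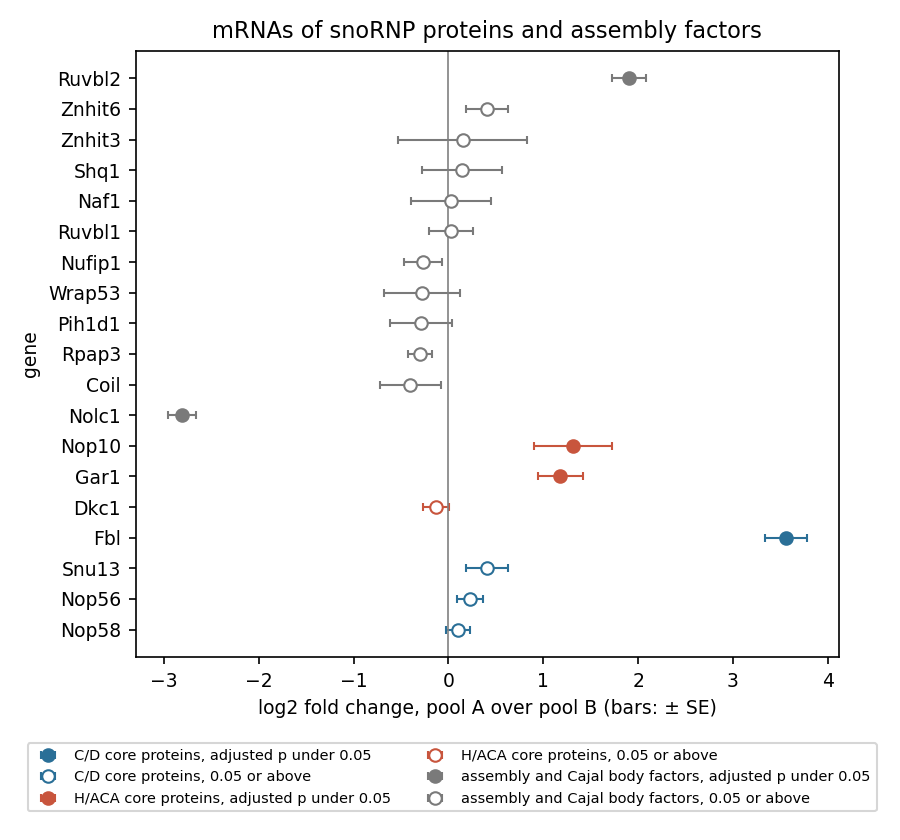
Log2 fold change, pool A over pool B, of the 19 tested mRNAs of snoRNP proteins and assembly factors, with bars of ± SE; filled symbols passed an adjusted p of 0.05. Fbl stands farthest to the right at 3.56 and Nolc1 farthest to the left at -2.81, and 14 of the 19 symbols are open.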

How the data were processed

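The authors deposited raw counts per gene for each library, with Ensembl gene identifiers and names. Per the submitters' processing notes STAR and featureCounts were used. Their versions, their options and the genome build are not given in the sources used here. Libraries were strand-specific per the labels' protocols. The authors' mean columns were not used. Members and gene lists were chosen with earlier results of these data known.

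All genes were fitted together with edgeR 4.0.16 in R 4.3.3 (TMM factors, filterByExpr by pool, quasi-likelihood test on 6 libraries, pool as the only term). P-values were Benjamini-Hochberg adjusted over 11582 genes at a threshold of 0.05. Class sums were compared by exact two-sided permutation tests. CPM values use each library's total, and 3 counts correspond to 0.814 to 1.64 CPM. Count ratios carry 95% exact intervals. Without molecular identifiers, intervals and floors cover counting error only. In simulated counts for pool A against pool B, 11509 genes were tested and 195 of them had been given a change. The test recovered 48% of 2-fold and 91.6% of 4-fold changes, and 4.93% of its calls were false. Changed genes were drawn from all tested genes, and in the real data 40.6% of genes passed. Recovery among low-count member rows was therefore not measured.

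Named were, in the H/ACA and in the C/D class, the 5 rows with the highest mean CPM and up to 5 called rows in each direction with a mean of at least 10 counts, every tested scaRNA, every core protein and the 5 most changed called genes of the other lists. Other rows named in the text were chosen after their values were seen. RefSeq sequences and gene neighbourhoods are those of GRCr8, and no coordinate was carried over to the count table. Alternatives were other scalings, filters, DESeq2 1.42.0, limma-voom (limma 3.58.1), a replicate block, rows of one name summed, and each library left out.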

Additional observations from a re-analysis of the deposited data

How the results depend on the processing

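The summed C/D share (-1.42 on the log2 scale) was -0.13 without its most abundant row, -1.87 over rows that held 10 counts or more in each library, and 0.81 without the rows from Gm26224 to SNORD81 (an alternative added after the data were seen; 0.74, 0.79, 0.80, 0.82, 0.84 and 0.88 when 1 library was also left out). The C/D over H/ACA ratio (-1.56) was -0.20, -1.04 and 0.67 in the same settings (0.55, 0.58, 0.65, 0.68, 0.77 and 0.78). With SNORD22 also left out, the values were 0.36 and 0.21. The H/ACA share (0.15) was -0.82 over rows with at least 10 counts in every library, where only Snora9 is left, and 0.31 with DESeq2 size factors, where the pools did not overlap (nor at 0.29 with TMM factors). Leaving out each library gave 0.03 to 0.22 for H/ACA, -1.57 to -1.30 for C/D and -1.76 to -1.44 for their ratio.

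Members higher with pool A numbered 7 with no filter, 2 where every library had to hold 10 counts (C/D: 2), and 3 to 7 with a library left out (C/D: 3 to 6). The 7 were counted without pool B replicate 1. Members higher with pool B numbered 3 without the rows from Gm26224 to SNORD81 (C/D: 1), and C/D rows higher with pool B numbered 2 with at least 10 counts in every library. H/ACA rows higher with pool A numbered 1 with no filter, 1 with rows of a name summed (SNORA70, 1.47 ± 0.54, adjusted p = 0.0317) and 0 to 2 with a library left out. Genes of the list of snoRNP core proteins and assembly factors higher with pool B numbered 2 with total counts alone, 2 with limma-voom and 1 to 3 with a library left out. Without 1 library, host genes higher with pool B numbered 10 to 16. The SNORD29 call was lost with limma-voom (adjusted p = 0.0542). Snord17 (-0.08) was 0.02 with upper-quartile factors and -0.46 to 0.21 with a library left out, above 0 without pool A replicate 1 (0.21) or pool B replicate 2 (0.18). Nop58 was -0.04 with total counts alone. Apart from differences set by fewer rows or libraries, the cause of these changes was not tested. Of 437 refits of 30 named genes, 425 kept direction and side of the threshold.

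Same-numbered libraries did not deviate together (r = 0.0409, -0.0195 and 0.02), and were not treated as pairs. With a replicate block, 4 members passed toward pool A and 6 toward pool B, as without it. Total counts alone moved the median of all genes from 0.02 to -0.13 and of tested members from -0.18 to -0.31. Depth limits the members: 8 of 328 rows had at least 10 counts in every library.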
